A study of Homo sapiens with 8 samples.

Results

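The genes described here carry the MHC class I pathway and the proteasome that feeds it: 36 symbols chosen by their role, of which 35 had a probe on the array and 34 were tested among 17297 genes. They are class I heavy chains with B2M (6), the class I transactivator NLRC5 (1), genes of peptide transport, trimming and loading (9), immunoproteasome subunits (3), PA28 activators (3) and constitutive subunits of the 20S core (14). RNA came from OVCAR-3, an established line of human ovarian carcinoma cells, 48 h after transient transfection in multiwell plates. The siHBO1 group (4 arrays) received siRNA against HBO1, a histone acetyltransferase whose gene is KAT7, and the siCTRL group (4 arrays) received scramble siRNA. All arrays share the line, the transfection and the time point, and neither an untransfected sample nor the number of siRNA sequences is given in the sources used here. The symbols were listed with earlier results of siHBO1 against siCTRL in view, so every value of that comparison below is a description of these genes, and the tests quoted are their places in the fit over all genes.

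Class I molecules show peptides from inside the cell to CD8+ T cells. The proteasome cuts proteins into peptides, TAP1 and TAP2 pump them into the endoplasmic reticulum, ERAP1 and ERAP2 trim them, and tapasin (TAPBP), calreticulin (CALR), calnexin (CANX) and the oxidoreductase PDIA3 help load them onto a heavy chain paired with B2M. Interferons are known to induce most of this pathway and to bring in the subunits PSMB8, PSMB9 and PSMB10, which take the places of PSMB5, PSMB6 and PSMB7 in newly assembled cores and form the immunoproteasome.

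Values are background-corrected, quantile-normalized log2 intensities, called levels here, and a difference is siHBO1 minus siCTRL on that log2 scale. Levels of different probes are not comparable. On a single array 20504 to 22111 of the probes passed detection, and both replicate 1 arrays stood apart from the other 6 on the first principal component, at -49.7 for siHBO1 and -44.8 for siCTRL against 11.9 to 19.2. KAT7, the targeted gene, stood at 6.68, 6.88, 7.06 and 7.44 on siHBO1 replicates 1 to 4 and at 7.68, 7.98, 7.94 and 7.36 on siCTRL replicates 1 to 4 (difference -0.73, SE 0.19, limma adjusted p = 0.589, or 0.382 with the replicate number as a block). The array labelled siHBO1 replicate 4 thus lay 0.08 above siCTRL replicate 4, and results are also given below without that pair where it matters. Of 10 epithelial and ovarian markers 9 were detected, PAX8, MUC16 and EPCAM among them, against 2 of 10 leukocyte markers (CD14 and NCAM1), 2 of 6 fibroblast markers and 1 of 4 endothelial markers. PTPRC, CD3E, MS4A1, PECAM1 and DCN did not pass the detection filter, and summed leukocyte marker intensity ranged from 2915 to 3292 in siHBO1 and from 2902 to 3510 in siCTRL.

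PSMB9 and TAP1, the members with the largest differences, are neighbours that share upstream sequence, which is shown first for that reason. In the RefSeq annotation of GRCh38.p14, TAP2, PSMB8, TAP1 and PSMB9 follow each other on chromosome 6 with 0 other protein-coding genes between them, and 11 of the 36 members lie on that chromosome. TAP1 and PSMB9 are read in opposite directions, with 487 bases between their starts. The upstream parts of their promoter windows are printed 5′ to 3′ on each gene's own strand, from chr6:32853705-32853954 on the minus strand for TAP1 and chr6:32853942-32854191 on the plus strand for PSMB9, and they overlap by 13 bases. The HLA-B stretch, the remaining member past the threshold below, is chr6:31357180-31357429 on the minus strand. Capitals mark every match, on either strand, to any of 5 motifs: GAAANNGAAA (interferon-stimulated response element, bound by interferon regulatory factors), TTCNNNGAA (gamma-activated sequence), GGGNNTTTCC (kappa B site), CCAAT (bound by NF-Y) and TGACNNNGC (antioxidant response element). Each stretch covers bases -250 to -1 from the start.
TAP1: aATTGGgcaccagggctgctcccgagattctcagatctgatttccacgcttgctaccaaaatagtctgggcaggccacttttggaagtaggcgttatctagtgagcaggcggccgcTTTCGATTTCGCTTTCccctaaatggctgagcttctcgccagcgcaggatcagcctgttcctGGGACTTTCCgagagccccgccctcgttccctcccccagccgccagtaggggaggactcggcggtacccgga
PSMB9: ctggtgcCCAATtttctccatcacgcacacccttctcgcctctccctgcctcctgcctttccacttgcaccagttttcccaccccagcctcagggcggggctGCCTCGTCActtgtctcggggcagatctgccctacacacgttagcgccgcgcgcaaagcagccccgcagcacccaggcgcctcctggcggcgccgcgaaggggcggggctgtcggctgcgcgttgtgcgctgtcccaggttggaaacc
HLA-B: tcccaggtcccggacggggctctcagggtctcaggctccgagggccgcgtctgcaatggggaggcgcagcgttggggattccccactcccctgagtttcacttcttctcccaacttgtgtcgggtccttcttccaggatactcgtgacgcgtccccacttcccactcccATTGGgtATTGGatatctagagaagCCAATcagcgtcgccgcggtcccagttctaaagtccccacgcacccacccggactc

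In the TAP1 stretch 2 overlapping matches to the interferon-stimulated response element lie 119 to 134 bases before the TAP1 start, which is 354 to 369 bases before the PSMB9 start and thus outside the PSMB9 window. A kappa B match lies at -72 to -63 and a CCAAT match at -249 to -245. The PSMB9 stretch holds a CCAAT match at -243 to -239 and an antioxidant response element match at -148 to -140. The HLA-B stretch holds 3 CCAAT matches between -81 and -52. Its letters do not match the other 4 motifs as spelled above, and sites that depart from those letters were not searched for.

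Promoter windows, from 250 bases before to 50 after a start, were listed for 29 of the 36 members. The interferon-stimulated response element occurs in the windows of 13 of these 29 genes, against 4.38% of all 27305 genes in the table (3.57% of 35116 windows). They are 2 of 5 heavy chain and B2M genes, 5 of 8 transport, trimming and loading genes, 2 of 3 immunoproteasome genes, 2 of 3 PA28 genes and 2 of 10 constitutive subunit genes. The kappa B letters occur in 4 members (B2M, TAP1, TAPBP and TAPBPL) against 2.33% of all genes, the gamma-activated sequence in 5 against 9.38%, the antioxidant response element in 7 against 16.1%, and the CCAAT box in 18 against 39.7%. Members can have several windows, so the shares are per gene, and a match is a run of letters, not a bound site. Likewise, a gene counted without a match can still hold a site with other letters, so the counts cover these exact letters only. Matches upstream of 6 further members are printed to show how alike they are across genes whose levels differed to different degrees. They come from chr15:44711333-44711418 (plus strand), chr6:29723238-29723317 (plus), chr6:32838758-32838837 (minus), chr6:33314079-33314138 (minus), chr16:67936851-67936911 (minus) and chr14:24146611-24146678 (minus).
B2M: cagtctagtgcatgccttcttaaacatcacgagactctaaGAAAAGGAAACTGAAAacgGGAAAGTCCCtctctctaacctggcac
HLA-F: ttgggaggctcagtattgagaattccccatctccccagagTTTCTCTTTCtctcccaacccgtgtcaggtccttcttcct
TAP2: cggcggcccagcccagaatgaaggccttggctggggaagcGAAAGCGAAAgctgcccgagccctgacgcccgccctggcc
TAPBP: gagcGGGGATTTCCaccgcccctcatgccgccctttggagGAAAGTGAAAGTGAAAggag
PSMB10: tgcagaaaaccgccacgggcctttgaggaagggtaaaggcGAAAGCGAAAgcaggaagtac
PSME2: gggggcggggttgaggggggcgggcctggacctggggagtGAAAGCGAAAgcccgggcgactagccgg

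**Figure D1:**
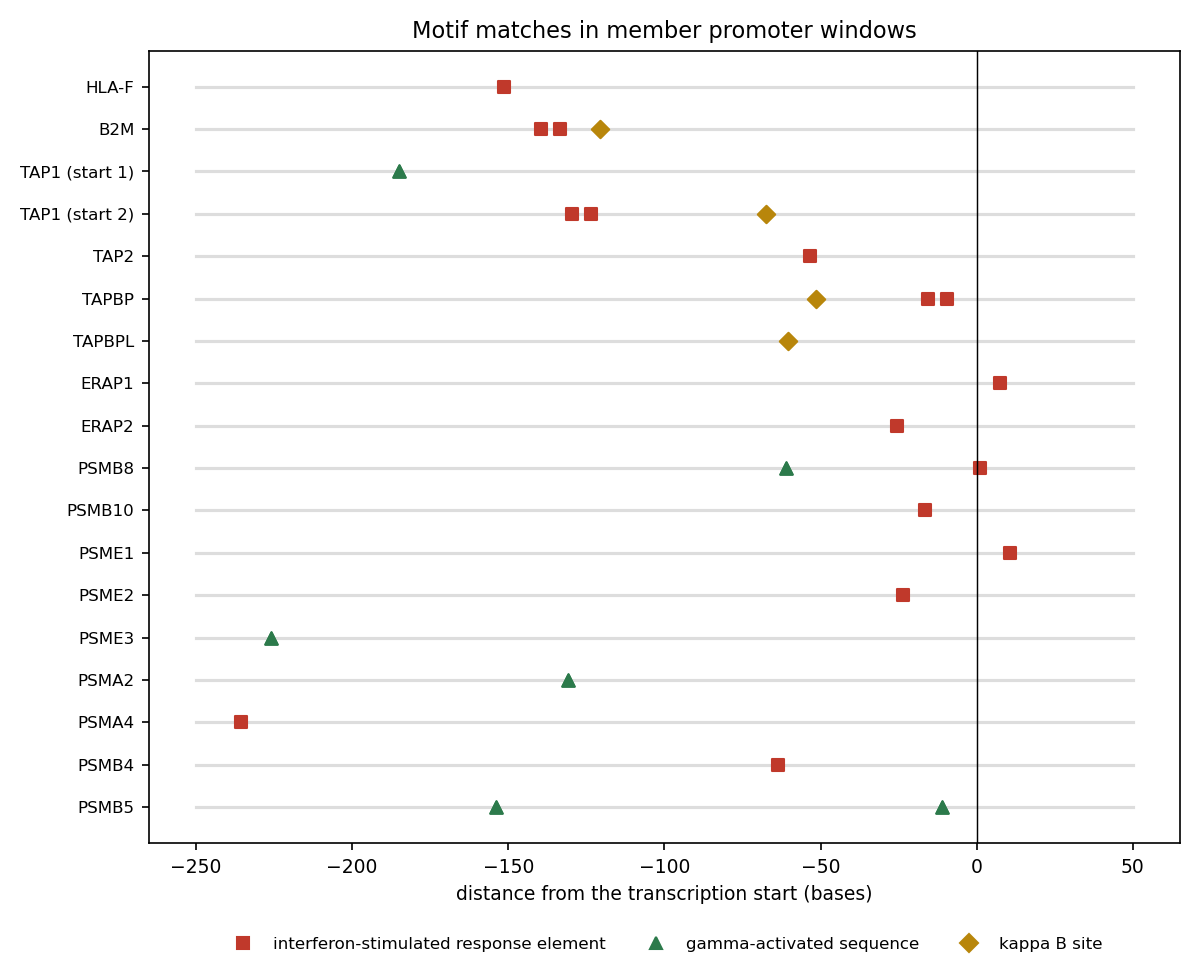
Positions of matches to 3 motifs in the promoter windows of members that hold any of them. The x axis is the distance from the annotated start in bases, each row is 1 window (TAP1 has a row for each of its 2 annotated starts that hold a match), and each symbol is the centre of a match on either strand. Interferon-stimulated response element matches of TAP2, TAPBP, ERAP2, PSMB8, PSMB10 and PSME2 lie within 58 bases before the start or across it. Those of ERAP1 (3 to 12) and PSME1 (6 to 15) lie just after it, and that of PSMB4 lies at -68 to -59. Matches of HLA-F, B2M, TAP1 and the constitutive subunit PSMA4 lie more than 100 bases before it.

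Of the 34 tested members, 0 passed the threshold of adjusted p under 0.05 in the limma fit without a block, in which 0.0347% of all genes passed (0.0289% higher). With the replicate number as a block, 3 rose (TAP1, PSMB9 and HLA-B) and 0 fell, against 0.335% of all genes called in that fit and 0.272% called higher. At an unadjusted p under 0.05 without the block 8 members were called, all higher (3.76% of all genes, 1.93% higher and 1.83% lower): HLA-B, HLA-F, HLA-G, TAP1, TAP2, TAPBPL, PSMB8 and PSMB9. With the block 10 were, all higher (7.59% of all genes, 3.6% higher).

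The groups lay fully apart for 4 members, HLA-F, HLA-G, TAP1 and TAPBPL, all higher in siHBO1 (1.35% of all genes lay apart with siHBO1 higher and 1.47% with siHBO1 lower). In all 4 numbered pairs 12 members were higher (6.96% of all genes) and 1 was lower (8.71%), and 26 had a difference above 0 (47.8%). The median difference over all genes was -0.01. Since the list was drawn up with this comparison in view, nothing is read from these shares. In bulk RNA, fewer cells of a kind and less RNA per cell cannot be told apart.

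Members can have several probes, and each kept probe was also tested on its own, 49 for the 34 members. Without the block 0 member probes passed limma's test (0% of 21377 kept probes) and 9 had an unadjusted p under 0.05, all higher (3.7% of kept probes, 1.85% higher). With the block 3 rose, 1 each of HLA-B, TAP1 and PSMB9 (0.323% of kept probes, 0.276% higher), and 14 were higher at an unadjusted p under 0.05 (3.46%). Of the 14 members with several kept probes, 7 had probes that differed in sign: HLA-F, ERAP2, CANX, PSMA1, PSMA3, PSMA4 and PSMA6.

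**Figure D2:**
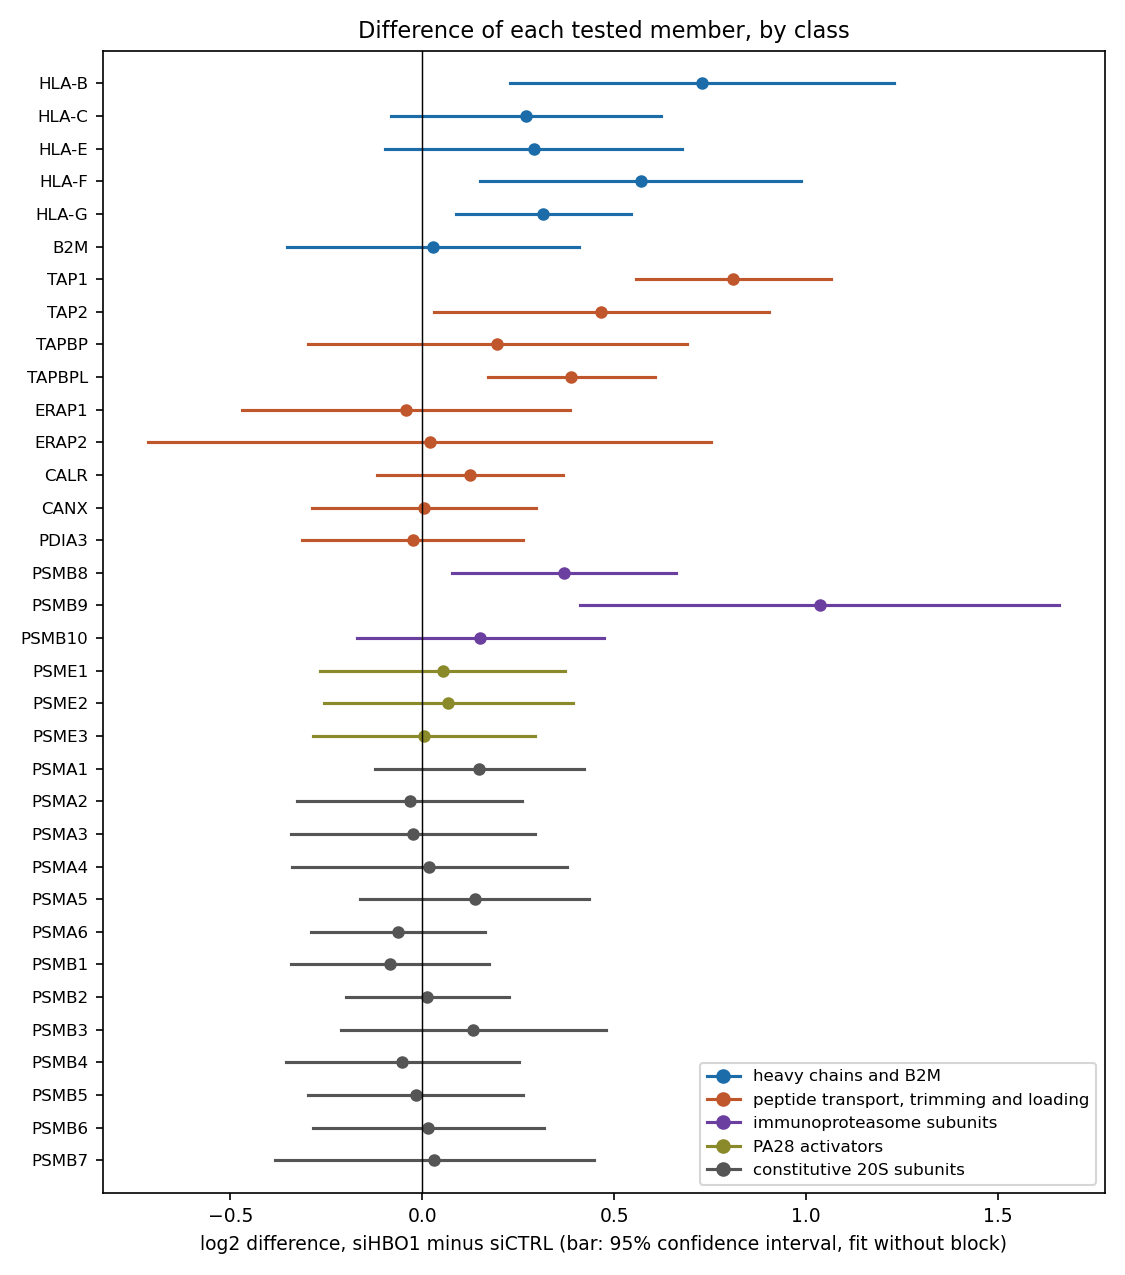
Difference of each of the 34 tested members (x axis, log2 scale, siHBO1 minus siCTRL) with its 95% confidence interval from the limma fit without a block, coloured by class. The intervals of 8 members leave out 0, all of them to the right, and those of the 13 constitutive subunits all include it.

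Among the heavy chains HLA-B, which presents peptides as a classical class I molecule, differed most. Its level was 11.98, 11.44, 11.02 and 11.43 on siHBO1 replicates 1 to 4 and 11.11, 10.57, 10.37 and 10.90 on siCTRL replicates 1 to 4. It was higher in every numbered pair, by 0.53 to 0.87, but the groups overlapped, since siHBO1 replicate 3 lay below siCTRL replicate 1. The difference was 0.73 (SE 0.22, 1.66-fold, limma adjusted p = 0.777, and block SE 0.10 with adjusted p = 0.0447). That call was lost under the block without any 1 pair (adjusted p 0.0718 to 0.280), and without both replicate 1 arrays, the highest of their groups, the difference was 0.68.

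HLA-F, a non-classical class I molecule, stood at 10.58, 9.98, 9.83 and 10.06 in siHBO1 and at 9.68, 9.65, 9.16 and 9.68 in siCTRL, with no overlap (difference 0.57, SE 0.19, limma adjusted p = 0.885, or 0.225 with the block). A dimmer second probe of HLA-F, ILMN_1762861, gave -0.09 (SE 0.19), with siCTRL replicate 3 its highest array at 7.73. The probes of HLA-F thus disagreed in sign, and siCTRL replicate 3 was the lowest siCTRL array on the brighter probe. HLA-G, known from the placenta, stood at 8.15, 7.95, 7.93 and 7.87 in siHBO1 and at 7.60, 7.65, 7.61 and 7.78 in siCTRL. Its groups did not overlap, and the difference was 0.32 (SE 0.10, 95% interval 0.09 to 0.54, limma adjusted p = 0.850). The HLA-G probe was dim, with intensities of 329 to 523 before correction. With no background correction its difference was 0.16.

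HLA-E, which presents signal peptides of other class I chains to NKG2A receptors, stood at 12.45, 12.08, 11.89 and 11.69 in siHBO1 and at 11.96, 11.78, 11.48 and 11.73 in siCTRL (difference 0.29, SE 0.17), with overlapping groups and pair 4 at -0.04. HLA-C, the remaining classical chain, differed by 0.27 (SE 0.16) and was higher in every pair, by 0.11 to 0.46. B2M, the light chain that every class I heavy chain needs, stood at 14.70, 14.09, 14.19 and 14.73 in siHBO1 and at 14.43, 14.46, 14.54 and 14.17 in siCTRL. Its difference was 0.03 (SE 0.17, 95% interval -0.35 to 0.41) on 1 probe and 0.11 (SE 0.12) on the other, and the pairs went both ways, from -0.37 to 0.56. The 6 members of this class had a median of 0.30 (0.23 without both replicate 1 arrays). Class I heavy chains have near-identical stretches, so a probe of one may read another, and their values are uncertain to that degree. NLRC5, which drives class I transcription, had 1 probe (ILMN_1716704), detected on 0 of 8 arrays (detection p 0.177 to 0.417), so no difference is given for it.

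TAP1, the first subunit of the peptide transporter, had the smallest SE of the 3 members called with the block. It stood at 12.34, 12.38, 12.12 and 12.36 in siHBO1 and at 11.62, 11.53, 11.28 and 11.52 in siCTRL. Every siHBO1 array lay above every siCTRL array, and the pair differences ran only from 0.72 to 0.85. The difference was 0.81 (SE 0.11, 1.75-fold, 95% interval 0.56 to 1.07, limma adjusted p = 0.0762, and block SE 0.08 with adjusted p = 0.0228). Pair 4, whose siHBO1 array did not have a lower KAT7 level, gave 0.84. Under the block without any 1 pair the adjusted p was 0.0563 to 0.173, and without background correction and without the block TAP1 passed at 0.76 (adjusted p = 0.0298).

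TAP2, the partner subunit, stood at 10.63, 10.09, 9.92 and 9.67 in siHBO1 and at 9.73, 9.73, 9.38 and 9.59 in siCTRL (difference 0.47, SE 0.19, limma adjusted p = 1.00, or 0.422 with the block). Its groups overlapped, siHBO1 replicate 1 was far above the others, and pair 4 differed by 0.07 only. A second TAP2 probe gave 0.48 (SE 0.24), with pair 4 at -0.04. Without both replicate 1 arrays the TAP2 difference was 0.32.

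TAPBPL, a tapasin-related editor of bound peptides, stood at 8.02, 8.25, 8.07 and 8.19 in siHBO1 and at 7.69, 7.71, 7.73 and 7.84 in siCTRL. The groups did not overlap, and the difference was 0.39 (SE 0.10, 95% interval 0.17 to 0.61, limma adjusted p = 0.501, or 0.260 with the block). The TAPBPL probe was dim too, at 339 to 584 before correction, and with no background correction the difference was 0.20. Tapasin itself, TAPBP, stood at 12.14, 11.24, 11.24 and 11.19 in siHBO1 and at 11.46, 11.45, 11.06 and 11.06 in siCTRL. Its difference of 0.20 (SE 0.22) was 0.03 without both replicate 1 arrays, of which the siHBO1 array was the highest. A dimmer second TAPBP probe, ILMN_1773031, detected on 7 of 8 arrays, gave 0.38 (SE 0.20), with pairs 1 to 4 at 0.30, 0.29, 0.94 and -0.00290.

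The trimming enzymes and the general chaperones of the endoplasmic reticulum showed small differences. ERAP1 differed by -0.04 (SE 0.19) and CALR, CANX and PDIA3 by 0.12, 0.00 and -0.02 (SE 0.11 to 0.13). The PDIA3 probe lay close to background, at 251 to 365 before correction (detection p 0.0052 to 0.048). Its value therefore says little about the gene. The ERAP1 probe was also dim, at 338 to 520. ERAP2 stood at 14.40, 13.35, 13.16 and 13.62 in siHBO1 and at 14.43, 13.12, 13.43 and 13.47 in siCTRL. Its replicate 1 arrays were the highest in both groups, by about as much, and the difference was 0.02 with an SE of 0.33 without the block and 0.11 with it. The 9 genes of this class had a median of 0.12 (0.06 without both replicate 1 arrays), with 7 above 0.

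**Figure D3:**
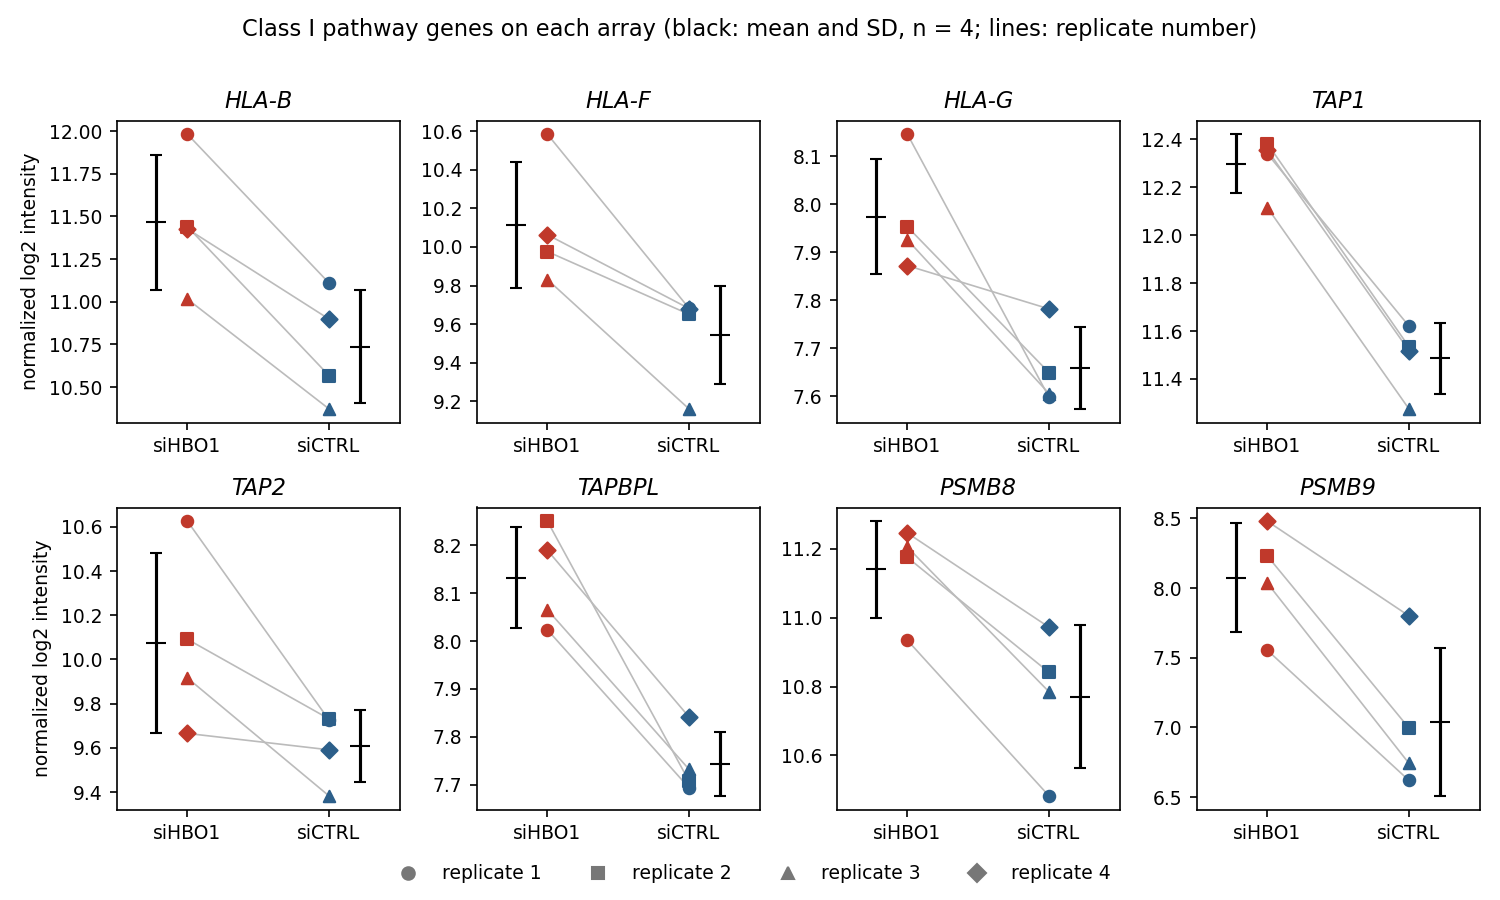
Normalized log2 intensity (y axis) on each array for the 8 members with an unadjusted p under 0.05, siHBO1 left of siCTRL. Symbols give the replicate number, grey lines join arrays of the same number, and black marks show the mean and SD (n = 4). Each panel shows the brightest kept probe of its gene. In all 8 panels every line runs down from siHBO1 to siCTRL, and the groups are fully apart for HLA-F, HLA-G, TAP1 and TAPBPL.

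Of the immunoproteasome subunits PSMB9, which takes the place of the caspase-like subunit PSMB6, had the largest difference of all members. It stood at 7.55, 8.23, 8.04 and 8.48 in siHBO1 and at 6.62, 6.995, 6.74 and 7.80 in siCTRL. Each pair was higher in siHBO1, by 0.93, 1.24, 1.29 and 0.68, while the groups overlapped, since siCTRL replicate 4 lay above siHBO1 replicate 1. The difference was 1.04 (SE 0.28, 2.05-fold, limma adjusted p = 0.603, and block SE 0.12 with adjusted p = 0.0358). Under the block the call held without pair 4 (1.15, adjusted p = 0.0388) and was lost without pair 1, 2 or 3 (0.163, 0.176 and 0.191).

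The PSMB9 probe was dim, and the size of its difference depended on the background correction. Its intensity before correction was 357, 512, 504 and 661 in siHBO1 and 247, 376, 357 and 491 in siCTRL, on arrays whose medians ran from 240 to 324 in siHBO1 and from 224 to 312 in siCTRL. With no background correction the difference was 0.49, and in the authors' processed values 0.91. A second probe, ILMN_1798233, detected on 7 of 8 arrays, gave 0.44 (SE 0.14), with pairs 1 to 3 at 0.60, 0.53 and 0.69 and pair 4 at -0.04.

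PSMB8, the chymotrypsin-like subunit of the immunoproteasome, stood at 10.93, 11.18, 11.20 and 11.25 in siHBO1 and at 10.48, 10.84, 10.78 and 10.97 in siCTRL. It was higher in each pair, by 0.27 to 0.45, with overlapping groups (difference 0.37, SE 0.13, limma adjusted p = 1.00, or 0.278 with the block). Its other 2 detected probes gave 0.31 and 0.27, and the latter, ILMN_1767006, stood at -0.08 in pair 4. PSMB10, its trypsin-like subunit, stood at 13.21, 13.64, 13.58 and 13.75 in siHBO1 and at 13.16, 13.38, 13.51 and 13.54 in siCTRL, a difference of 0.15 (SE 0.14) with pairs between 0.05 and 0.26.

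Each immunoproteasome subunit was set beside the subunit whose place it takes. PSMB5, PSMB6 and PSMB7 differed by -0.02, 0.02 and 0.03 (SE 0.12, 0.13 and 0.18). The PSMB9 difference exceeded that of PSMB6 by 1.04, 1.27, 1.05 and 0.72 in pairs 1 to 4, a mean of 1.02 (SD 0.23, n = 4 pairs). The PSMB8 difference exceeded that of PSMB5 by 0.37, 0.43, 0.30 and 0.45, a mean of 0.39 (SD 0.07). For PSMB10 against PSMB7 the excess was 0.04, 0.33, -0.42 and 0.53, so the direction varied between pairs. On the brightest kept probes, 2 of the 3 exchanges thus showed an excess in every pair and the PSMB10 exchange did not. The dimmer PSMB9 probe ILMN_1798233 showed no excess in pair 4, where it stood at -0.04 and PSMB6 at -0.04. Because the list itself was framed around this contrast, no test is attached to it.

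**Figure D4:**
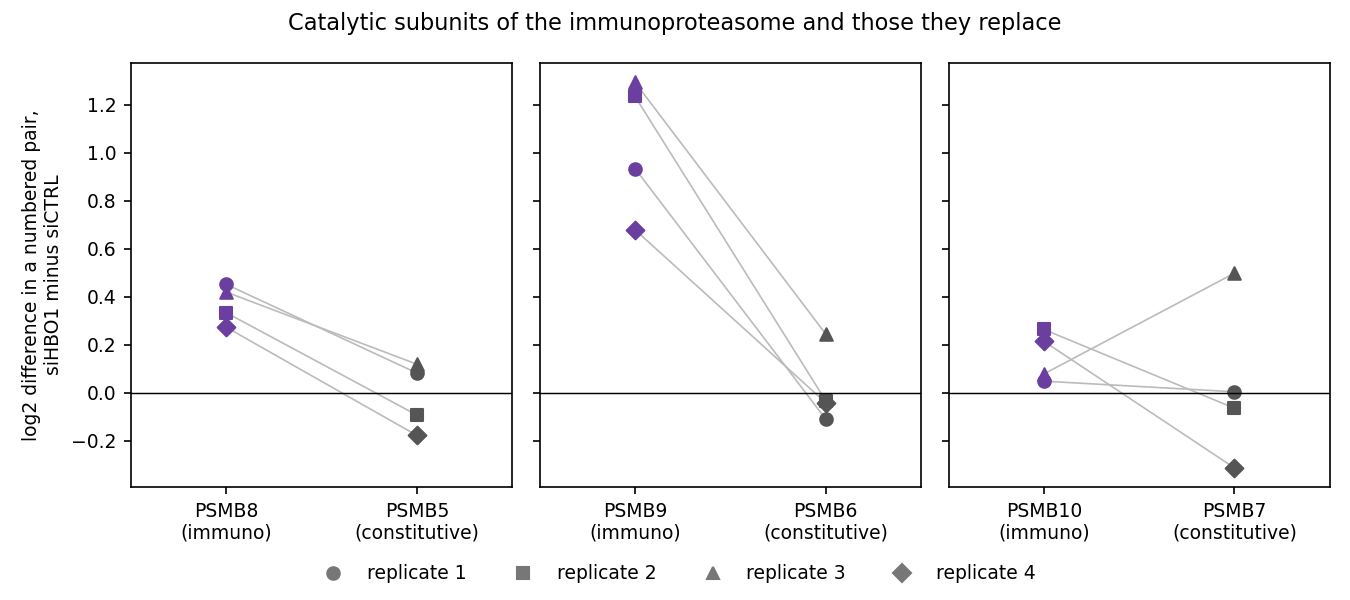
Difference in each numbered pair (y axis, log2 scale, siHBO1 minus siCTRL) for the catalytic subunits of the immunoproteasome (purple, left) and the constitutive subunits they replace (grey, right). Symbols give the replicate number and lines join values of the same pair. The lines of PSMB8 and PSMB9 all fall to the constitutive subunit, whereas that of pair 3 rises between PSMB10 and PSMB7.

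The PA28 genes, whose products open the core from its ends, showed small differences that changed direction between pairs. PSME1 stood at 14.00, 14.15, 14.10 and 14.00 in siHBO1 and at 13.87, 14.04, 13.74 and 14.38 in siCTRL (difference 0.05, SE 0.14). PSME2, which pairs with PSME1 in the interferon-inducible ring, stood at 13.91, 13.89, 14.35 and 13.99 in siHBO1 and at 13.78, 14.00, 13.84 and 14.24 in siCTRL (difference 0.07, SE 0.14). PSME3, the nuclear homologue, stood at 11.81, 12.14, 12.13 and 12.23 in siHBO1 and at 11.86, 12.19, 12.05 and 12.20 in siCTRL (difference 0.00, SE 0.13). PSME1 and PSME2 hold interferon-stimulated response element letters near their starts, as the windows of TAP2 and PSMB8 do, and the 13 members with such a match differed by -0.05 to 0.81, with a median of 0.07.

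The constitutive core, the barrel that holds the proteolytic sites, showed small differences in both directions. Of the 14 listed subunits 13 were tested, and PSMA7 had no probe under its symbol in the annotation used here. On the brightest probe of each, differences ran from -0.08 to 0.15 with a median of 0.01. Of these, 7 were above 0 and 0 had an unadjusted p under 0.05 by limma without the block. The widest bounds of their separate, unadjusted 95% intervals were -0.38 and 0.48, which puts 1.39-fold at the edge of the widest interval. These bounds hold for each subunit taken alone, not for all 13 at once. The largest differences on these probes were those of PSMA1 (0.15), PSMA5 (0.14) and PSMB3 (0.13). That of PSMA6 depended on the normalization, at -0.06 here, -0.22 with median scaling and -0.26 with no normalization. Its probe read 21162 to 32739.5 before correction, on arrays whose brightest probes read 25661.5 to 43275. A second PSMA6 probe gave 0.12 (SE 0.15). PSMA5, a structural ring subunit, stood at 14.05, 14.41, 14.48 and 14.24 in siHBO1 and at 13.97, 14.38, 14.09 and 14.18 in siCTRL. On the brightest probes it was the 1 constitutive subunit higher in every pair, by as little as 0.02 in pair 2. A dimmer PSMA3 probe, ILMN_2318011, was also higher in every pair, at 0.16 (SE 0.11), whereas the brightest PSMA3 probe gave -0.02. PSMB1 was the 1 subunit lower in every pair, at 14.21, 14.46, 14.45 and 14.46 in siHBO1 and at 14.26, 14.63, 14.51 and 14.52 in siCTRL (difference -0.08, SE 0.11). PSMA1 stood at 14.15, 14.52, 14.60 and 14.44 in siHBO1 and at 14.19, 14.37, 14.19 and 14.36 in siCTRL, and its other detected probe gave -0.01. PSMB3 stood at 13.68, 14.21, 14.39 and 13.99 in siHBO1 and at 13.88, 13.86, 13.91 and 14.08 in siCTRL, with pairs in both directions.

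The replicate number moved the classes in different ways. The mean of the heavy chain class, taken per gene relative to its siCTRL mean, was 0.74, 0.26, 0.13 and 0.34 on siHBO1 replicates 1 to 4 and 0.15, 0.00, -0.19 and 0.04 on siCTRL replicates 1 to 4. That of the immunoproteasome class was 0.16, 0.61, 0.54 and 0.76 in siHBO1 and -0.31, 0.00, -0.06 and 0.37 in siCTRL. The replicate 1 arrays were thus the highest for heavy chains and the lowest for immunoproteasome subunits in both groups. For the constitutive class they were also the lowest, at -0.20 in siHBO1 and -0.17 in siCTRL. With the block 32 of the 34 members had a smaller SE than without it, and the part that replicate 1 plays in these levels was not tested. The immunoproteasome median was 0.37, and 0.34 without both replicate 1 arrays.

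**Figure D5:**
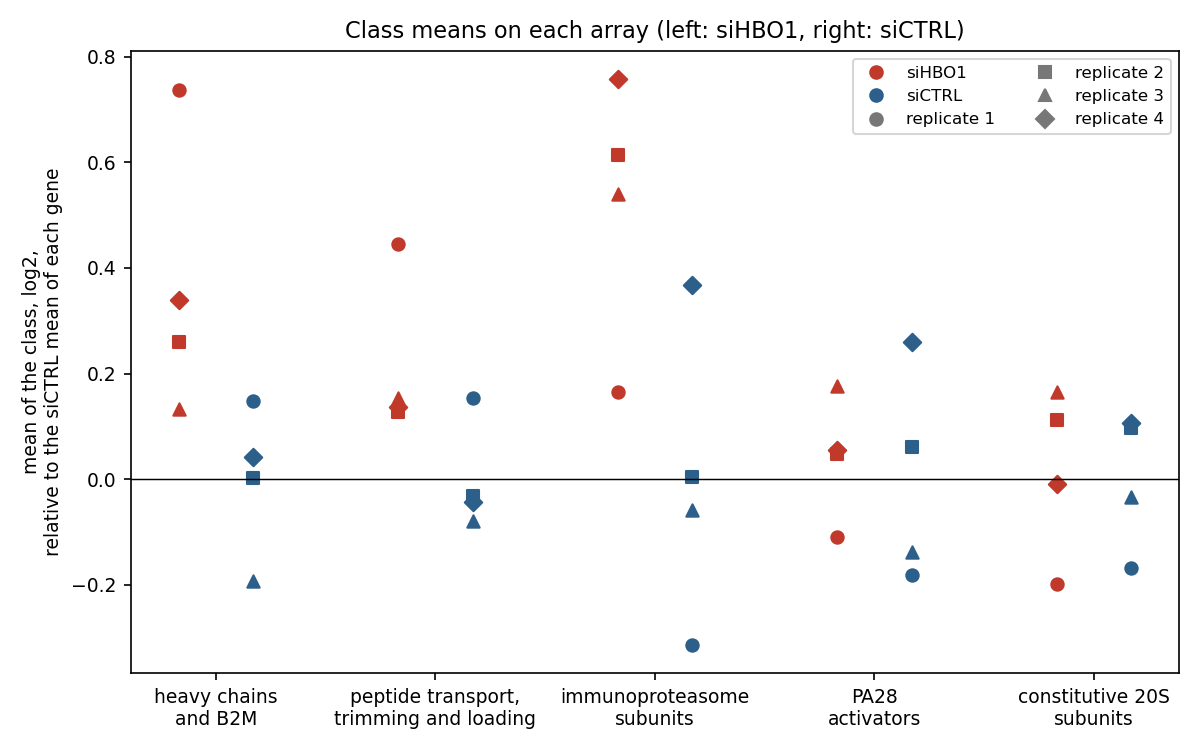
Mean of each class on each array (y axis, log2, relative to the siCTRL mean of each gene), siHBO1 left of siCTRL, with symbols for the replicate number. The siHBO1 replicate 1 array is at 0.74 for heavy chains and at 0.16 for immunoproteasome subunits. The groups overlap in every class, also for heavy chains, where siHBO1 replicate 3 (0.13) lies below siCTRL replicate 1 (0.15).

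Other genes around the pathway showed few differences. Of 15 tested genes of the 19S regulatory particle, which feeds substrates into the core, 0 passed limma's test with or without the block and 0 had an unadjusted p under 0.05 in either fit (median -0.01, with PSMD3 at -0.19 and ADRM1 at 0.10). Of 11 proteasome assembly factors and other regulators 0 passed limma and 0 had an unadjusted p under 0.05, with or without the block (median -0.00404, with PAAF1 at 0.20 and PSMG2 at 0.09). Of 7 cytosolic and vesicular peptidases 0 passed limma in either fit, 1 had an unadjusted p under 0.05 without the block (LAP3) and 2 had one with it (LAP3 and TPP2). LAP3, a leucine aminopeptidase, stood at 0.47 (SE 0.14, limma adjusted p = 0.758, or 0.198 with the block), and TPP2 at 0.24.

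Of 6 tested class I like molecules and NKG2D ligands 0 passed limma and 0 had an unadjusted p under 0.05, with or without the block (median -0.01, with MICB at 0.23 and ULBP2 at 0.20). The MHC class II genes, which serve presentation to CD4+ T cells, likewise had 0 of 9 tested past the threshold of limma in either fit (median 0.01). At an unadjusted p under 0.05 there were 0 without the block and 2 with it, HLA-DMB at 0.30 and IFI30 at -0.26, and the class II transactivator CIITA did not pass the detection filter. Among 18 tested promoter-binding factors and interferon signalling genes, 1 rose in both fits: IRF7, at 0.97 (SE 0.11, limma adjusted p = 0.0439, or 0.0184 with the block). IRF7 stayed at 0.91 to 1.10 in all 23 other settings but passed in 8 of them, the block included, and not in 15, which include median scaling, the authors' processed values, 7 of the 8 single arrays left out, and the block without pair 1, 2 or 3 (adjusted p over the 23 settings 0.0167 to 1.00). The list had a median of 0.09 and 14 members above 0. IRF9 stood at 0.80 (SE 0.16, limma adjusted p = 0.261, or 0.0835 with the block) and IRF1 at 0.13, both picked after their values were seen.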

How the data were processed

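Single-colour Illumina BeadChips measured total RNA in 8 samples. The deposited bead intensity of each probe is linear and not normalized, and each has a detection p-value, per the file headers. GenomeStudio and lumi appear in the submitters' processing notes, without role or version. The authors' deposited normalized values, on a log2 or similar scale (array medians 6.57, or 6.63 for both replicate 4 arrays), served as an alternative.

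Background was corrected with nec in limma 3.58.1 (R 4.3.3, offset 16), followed by quantile normalization and log2. Of 47312 probes, the 21377 with a detection p under 0.05 on 4 or more arrays were kept. The platform annotation gave 30108 probes 1 symbol, 8 several and 17196 none. Each gene is represented by its brightest kept probe, and of 55 member probes 49 were kept. Groups were compared with lmFit and eBayes, 2-sided, and adjusted by Benjamini-Hochberg across the 17297 genes tested, and the scripted fit was tested on simulated data. The labels do not say whether replicates are separate cultures, so p-values cover the spread between these samples, and the number of arrays limits the precision.

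Deviations from the group means correlated at 0.783, 0.325, 0.397 and 0.218 between same-numbered arrays. All exceed 0.1, and the numbers therefore served as a block in a further fit, although arrays 2 to 4 correlated more with another number (0.384 to 0.405). The group means include the replicate 1 arrays, which stood apart, so arrays 2 to 4 can correlate whatever their number. These correlations thus cannot show that arrays 2 to 4 are paired, and the member calls made with the block depend on that choice. No slide or scan date is given in the sources used here.

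The members and lists were chosen with earlier results of these data known. Array values are written out for members past the threshold in either fit and for up to 4 per class with the largest difference, and other lists by up to 4 genes past the threshold or else the 2 with the smallest p. B2M and ERAP2 were written out as well, picked after their values were seen. Alternatives covered the background, normalization, detection filter, probe choice, block and left-out arrays. Promoter windows are RefSeq's (GRCh38.p14), and the build behind the probes is not stated.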

Additional observations from a re-analysis of the deposited data

Results flagged for a closer look

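Among 68 groups of 4 arrays (34 members in siHBO1 and siCTRL), 7 had an array far from the others by Dixon's ratio, the gap to the nearest array over the whole range, above its 95% critical value. Chance flags about 1 in 20 groups. In siHBO1, replicate 1 was the array apart for 4 members. It was the highest for TAPBP (12.14 against 11.24 for the nearest, ratio 0.945), CALR (12.83 against 12.51, 0.966) and CANX (11.16 against 10.76, 0.847), and the lowest for PSMB1 (14.21 against 14.45, 0.941). In siHBO1, replicate 3 was the lowest for TAP1 (12.12 against 12.34, 0.842) and the highest for PDIA3 (6.98 against 6.60, 0.847). In siCTRL, replicate 3 was the lowest for HLA-F (9.16 against 9.65, 0.940).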

How the results depend on the processing

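Results were recomputed under 23 other settings. The count of 6 genes past the threshold became 58 with the replicate block, 16 with no background correction, 18 without replicate 1 in both groups, and 1 and 31 with the block but without pair 1 or pair 4. It became 0 by limma with median scaling (367 at an unadjusted p under 0.05), no normalization (169), the authors' processed values (626), without replicate 4 in both groups (549), and with the block without pair 2 (1098) or pair 3 (1114). Leaving out 1 array gave 0 to 5 (516 to 977 at an unadjusted p under 0.05). The count of members past the threshold, 0, became 3 with the block, 1 with no background correction (TAP1) and 1 with the block without pair 4 (PSMB9), and was 0 to 0 with 1 array left out. The count of member probes gave the same numbers, 3, 1 and 1, and 0 to 0.

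With 1 array left out, the median difference was 0.20 to 0.38 for heavy chains and B2M, 0.043 to 0.26 for peptide transport, trimming and loading (0.26 without siCTRL replicate 1), 0.27 to 0.44 for immunoproteasome subunits, -0.01 to 0.16 for PA28 activators and -0.08 to 0.05 for constitutive subunits. The KAT7 difference was -0.87 to -0.62, -0.33 with no background correction, and -0.997 (limma adjusted p = 0.0437) with the block without pair 4. HLA-B, TAP1 and PSMB9 stayed positive in all 23 settings, at 0.56 to 0.88, 0.74 to 0.87 and 0.49 to 1.29. The block changed no other member's call. The causes of these shifts were not tested. The dim PSMB9 probe is where signal over background limits a value most among members that passed.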
